A study of Mus musculus with 30 samples.

Results

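Saa3, Alox15, Slpi, Msln, Upk3b and Lrrn4 were read by gene symbol from the counts of 30 mouse islet libraries, which makes 6 genes of the 54232 gene IDs counted. They were chosen by their counts: an earlier look at the same libraries found Saa3 and Alox15 present at 6 weeks and absent at 18 weeks. The difference between those times is therefore described below and not tested. The series profiled RNA of pancreatic islets, the endocrine clusters that hold the insulin-secreting beta cells, to ask how cadmium changes their transcripts. All groups came from wild-type male C57BL/6N mice. The 6-week groups were 4 libraries of mice given 1 mM cadmium chloride and 5 libraries of vehicle mice. The 18-week groups were 5 libraries of mice given 1 mM cadmium chloride and 6 libraries of vehicle mice. The culture groups were 5 libraries of isolated islets kept for 96 hours with 0.5 uM cadmium chloride and 5 libraries of islets kept with vehicle. No age or route of dosing was available. A density gradient (Biocoll) separated the islets, so each library is a bulk of islet cells with whatever other pancreatic or peritoneal cells came along.

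Libraries held 49564350 to 58366797 counts at 6 weeks, 9092759 to 51852364 at 18 weeks and 24197072 to 26549350 in culture. Vehicle libraries 4 and 6 and cadmium library 5 were the shallow ones at 18 weeks. Cadmium libraries 2 and 3 of 18 weeks stand apart from the rest of their group for these genes, and the members' test results at 18 weeks are given with and without them. Insulin (Ins2) averaged 76625 to 165611 CPM in the 6 groups, where CPM is the count scaled to the same library total after TMM normalization. No label ties a library to its own animal or culture, so a p-value here speaks of variation among libraries, part of which may be technical. Time, preparation and sequencing run together with the 6-week, 18-week and culture groups and cannot be told apart. In bulk RNA, fewer cells of a type and less RNA per cell cannot be told apart either.

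Serum amyloid A proteins are acute phase proteins, made in large amounts during inflammation. In mice the liver makes Saa1 and Saa2, and Saa3 is the form made by macrophages, adipocytes and other cells outside the liver. Alox15 encodes the 12/15-lipoxygenase, which oxidises arachidonic and linoleic acid and, in mice, is a known product of resident peritoneal macrophages and eosinophils. Slpi encodes the secretory leukocyte protease inhibitor, which blocks neutrophil elastase and is made by epithelia and myeloid cells. Msln encodes mesothelin, a surface protein of the mesothelium, the cell layer that lines the peritoneal cavity and covers the pancreas. Upk3b, a uroplakin, and Lrrn4, a leucine-rich repeat membrane protein, are commonly used as markers of that same layer.

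All 6 genes are protein coding in the GENCODE annotation of mm10 (GRCm38). Saa3 (ENSMUSG00000040026) lies at chr7:46711998-46715700 and Alox15 (ENSMUSG00000018924) at chr11:70344152-70352031, both on the minus strand. Slpi (ENSMUSG00000017002) lies at chr2:164354070-164389095 on the minus strand and shares exonic bases with the microRNA gene Mir7678. Msln (ENSMUSG00000063011) lies at chr17:25748613-25754378 and Lrrn4 (ENSMUSG00000043110) at chr2:132868305-132880891 on the minus strand, and Upk3b (ENSMUSG00000042985) at chr5:136038496-136046487 on the plus strand. The promoters of Saa3 and Slpi are shown because these genes varied together over the 6-week libraries. Alox15, which varied with both, and Msln had no entry in the promoter set used. The RefSeq sequences of the 250 bases before each start site (build GRCm38.p6, minus strand) are chr7:46715677-46715926 for Saa3 and chr2:164356508-164356757 for Slpi. These RefSeq starts differ from the ends of the GENCODE spans above. The Slpi window lies inside its GENCODE span, and the Saa3 window overlaps the end of its own. Capitals mark each match on either strand to TTNNGNAA, the core of a C/EBP site, a factor family known from acute phase genes.
Saa3: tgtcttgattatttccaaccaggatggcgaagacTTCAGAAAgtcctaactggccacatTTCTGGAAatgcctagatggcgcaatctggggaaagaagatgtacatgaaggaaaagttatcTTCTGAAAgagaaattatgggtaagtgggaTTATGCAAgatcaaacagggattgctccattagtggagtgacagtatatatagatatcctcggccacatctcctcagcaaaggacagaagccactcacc
Slpi: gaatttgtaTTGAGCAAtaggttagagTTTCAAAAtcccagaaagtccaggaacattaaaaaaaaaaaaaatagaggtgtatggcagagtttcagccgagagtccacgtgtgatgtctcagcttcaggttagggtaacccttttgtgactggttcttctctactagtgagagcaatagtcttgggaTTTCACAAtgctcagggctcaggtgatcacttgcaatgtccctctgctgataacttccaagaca
Saa3 held 4 matches and Slpi 3, against at least 1 match in 36.8% of 32851 mouse promoters of that length. Upk3b and Lrrn4, the other members with an entry, held 1 match each, so a match was not particular to the pair shown. The exact TATA box letters TATAAA stood in neither the Saa3 nor the Slpi window and in 12.4% of promoters. The Saa3 window does hold the letters TATATATA, which that search did not count. The core of a GATA factor site, TGATAA, stood once in Slpi, overlapping no C/EBP match, and in 7.9% of promoters. A match is a description of letters and shows no binding.

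Saa3, Alox15 and Slpi were detected in every 6-week library. Saa3 held 854, 334, 17 and 93 counts in the cadmium libraries at 6 weeks, against 2258, 2356, 1066, 158 and 914 in the vehicle libraries. Alox15 held 1595, 295, 139 and 183 counts in cadmium and 568, 830, 650, 214 and 592 in vehicle libraries. Slpi held 1326, 254, 69 and 134 counts in cadmium and 710, 597, 594, 190 and 598 in vehicle libraries. Cadmium library 1 was the highest of all 9 for Alox15 and Slpi, and cadmium library 3 was the lowest of all 9 for all 3 genes. Vehicle library 4 was the lowest vehicle library for each of them. Both groups overlapped for all 3 genes.

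**Figure D1:**
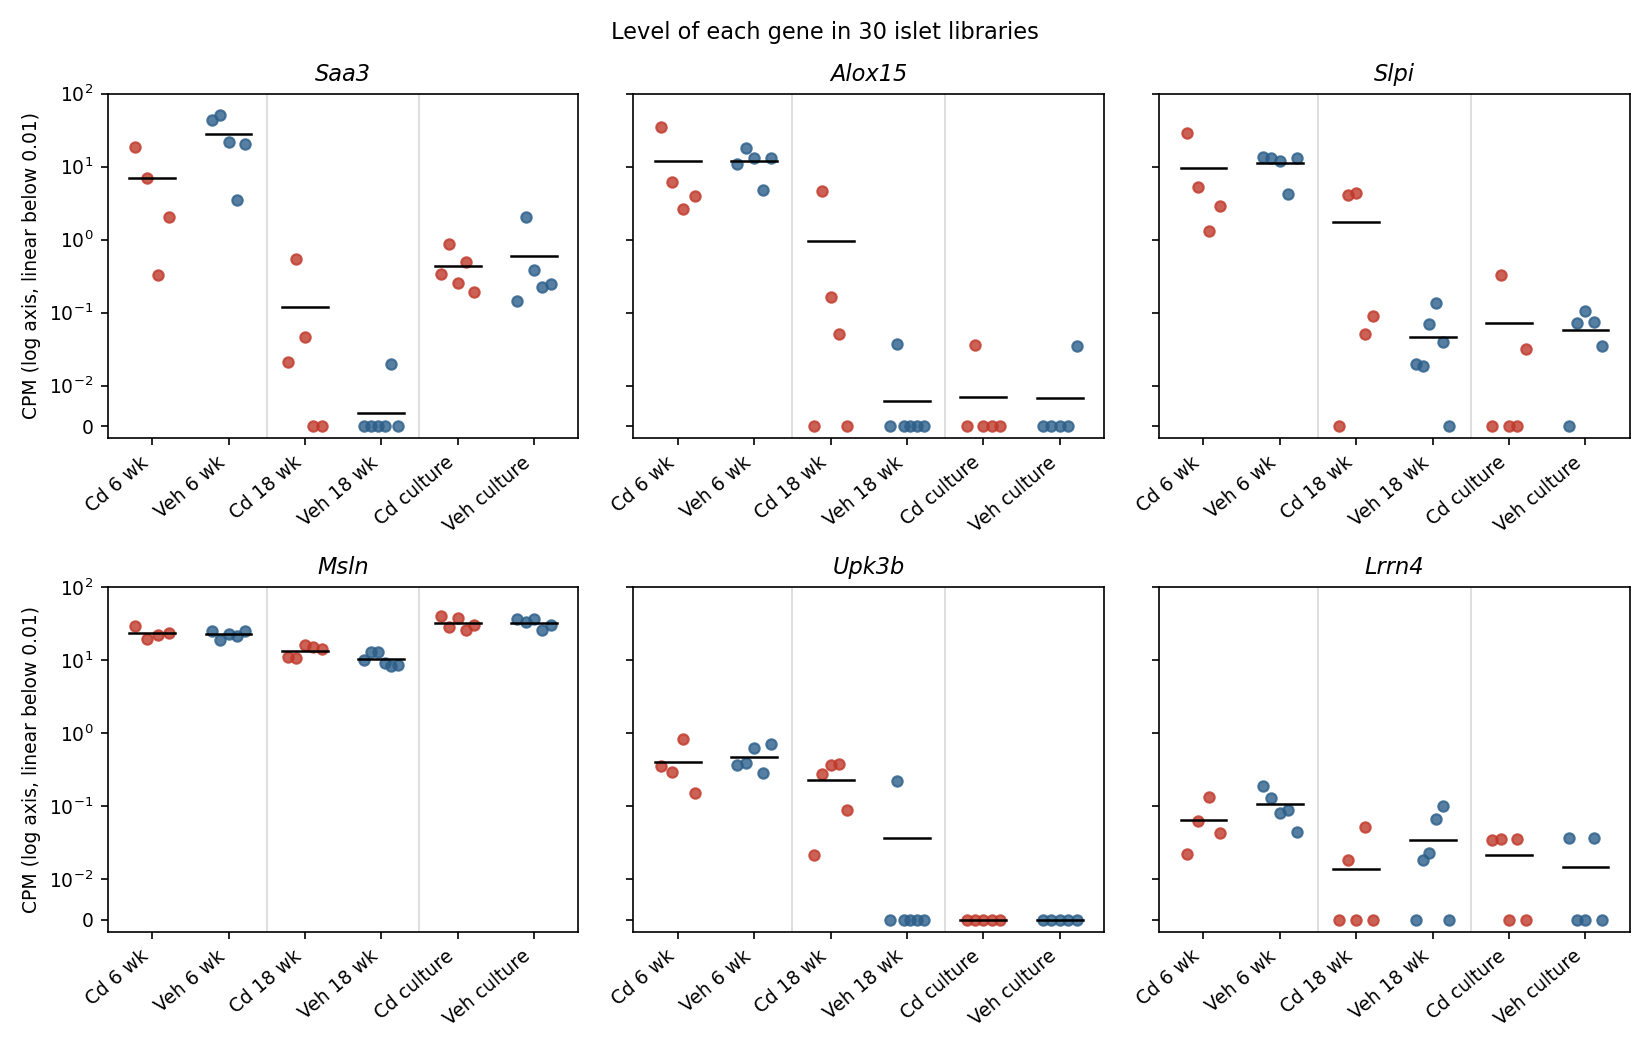
Level of each of the 6 genes in CPM (vertical axis, log scale, linear below 0.01) in every library, by group, with cadmium (red) left of vehicle (blue). Each point is 1 library and each horizontal line a group mean. Saa3, Alox15 and Slpi are detected in all 9 libraries at 6 weeks (Saa3 lowest at 0.324 CPM, in cadmium library 3) and near 0 in the 6 vehicle libraries at 18 weeks, while Msln lies between 8.21 and 39.8 CPM in all 30.

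At 18 weeks the same 3 genes were close to 0 in vehicle islets. Over the 6 vehicle libraries at 18 weeks Saa3 held 1 count in all, Alox15 2 and Slpi 9, against 6752, 2854 and 2689 counts over the 5 vehicle libraries at 6 weeks. As a share of all counts, Saa3 at 18 weeks was 0.00018 of its 6-week level, with a 95% interval of 4.56e-06 to 0.001. The ratio was 0.000852 (0.000103 to 0.00308) for Alox15 and 0.00407 (0.00186 to 0.00773) for Slpi. These intervals cover counting error only. In vehicle islets, 5 of the 6 genes had every 18-week library below every 6-week library, as had 22.7% of 26647 genes, and Lrrn4 overlapped. The genes were chosen for this contrast, so nothing is read from that count. The count of 5 also takes 0 counts as 0 CPM. At 3 counts, Upk3b in vehicle library 6 of 18 weeks would stand at 0.361 CPM, above its lowest 6-week vehicle value of 0.287 CPM.

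Not all cadmium libraries at 18 weeks shared that absence. Alox15 held 0, 248, 7, 2 and 0 counts in cadmium libraries at 18 weeks, against 0, 2, 0, 0, 0 and 0 in vehicle libraries. Slpi held 0, 222, 188, 2 and 2 counts in cadmium and 1, 1, 3, 2, 2 and 0 in vehicle libraries. Saa3 held 1, 29, 2, 0 and 0 counts in cadmium and 0, 0, 0, 0, 1 and 0 in vehicle libraries. Cadmium library 2 carried all 3 genes, cadmium library 3 carried Slpi with little Alox15, and the other 3 cadmium libraries lay within the range of vehicle. For Alox15 the statement that it was absent at 18 weeks thus goes against 1 library of 11. Among cadmium libraries, Msln alone of the 6 had every 18-week library below every 6-week one, as had 21.7% of 26353 genes.

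Among 13574 genes with at least 2 CPM in cadmium library 2, Alox15 ranked 1 in its level over the highest of the other 10 libraries of 18 weeks. It stood at 4.58 CPM there, against at most 0.162 CPM elsewhere. Fn1 (fibronectin), the immunoglobulin genes Igha and Ighd, and Emilin2 followed in that ranking. Slpi ranked 2158, at 4.1 CPM against 4.35 CPM in cadmium library 3. In cadmium library 3 the top 5 genes were all immunoglobulin genes, led by Ighg1 at 14.2 CPM against at most 0.607 CPM elsewhere. These rankings were made after the libraries had been seen to stand apart.

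The B and T cell list, 14 genes led by Ighm and Jchain, summed to 103 and 429 CPM in cadmium libraries 2 and 3 at 18 weeks, against 5.5, 7.17, 5.0, 70.6, 17.4 and 10.7 CPM in the vehicle libraries. The other cadmium libraries stood at 6.41, 52.6 and 7.03 CPM. Vehicle library 4 and cadmium library 4 thus had a raised sum with 2 counts of Slpi each. The 16 pan-macrophage markers summed to 239 CPM in cadmium library 2 and 217 CPM in cadmium library 3, against 146 to 165 CPM in vehicle libraries. The part of either cell type in the Slpi counts was not tested.

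Counts of 7 genes were set over those of Alox15 in cadmium library 2 of 18 weeks, and 3 of the ratios lay inside the range of the 6-week libraries and 4 below it. Slpi over Alox15 was 0.895 in that library, within the 0.496 to 1.25 of the 9 libraries at 6 weeks. The ratio of Serpinb2, a plasminogen activator inhibitor of activated macrophages, to Alox15 was 0.198, within 0.122 to 0.228 at 6 weeks. That of Cd5l, a secreted protein of tissue macrophages, was 0.323, within 0.131 to 0.374. Prg4 (lubricin) stood at 0.411 of Alox15, below the 1.1 to 1.5 of the 6-week libraries. Fn1 stood at 6.83, below 9.2 to 15.3, and the integrin gene Itgam at 0.202, below 0.216 to 0.454. Saa3 over Alox15 was 0.117, just under the lowest 6-week value of 0.122, which was that of cadmium library 3.

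**Figure D2:**
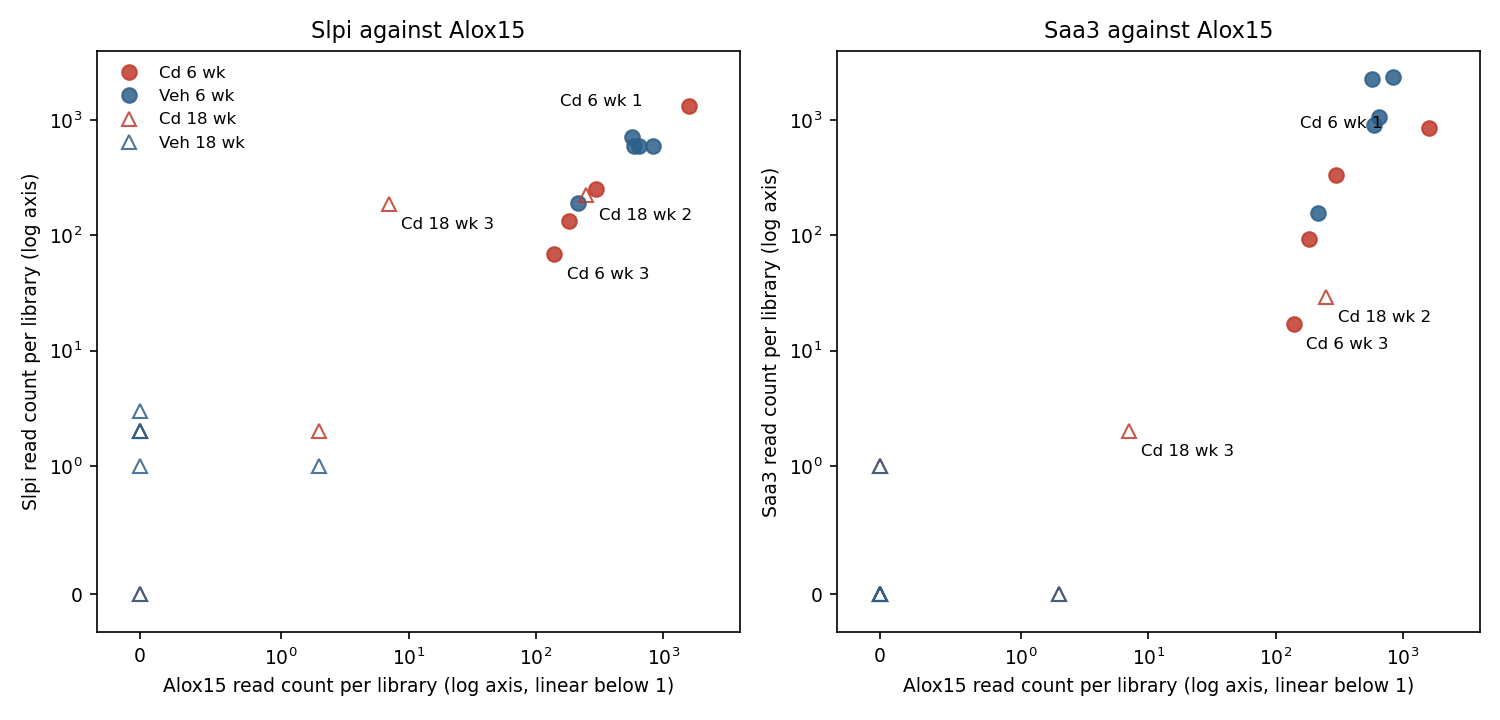
Read counts of Slpi (left) and Saa3 (right) against Alox15 in the 20 in vivo libraries, both axes on a log scale that is linear below 1. Filled circles are 6-week and open triangles 18-week libraries, cadmium red and vehicle blue, and some points at 0 to 2 counts coincide. Cadmium library 2 of 18 weeks lies among the 6-week libraries for Slpi, and cadmium library 3 has 188 counts of Slpi at 7 of Alox15.

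Over the 9 libraries of 6 weeks, the first 3 genes varied together. Pearson's r of log2 CPM was 0.97 between Alox15 and Slpi, 0.91 between Saa3 and Slpi and 0.85 between Saa3 and Alox15. Msln, Upk3b and Lrrn4 had r between -0.43 and 0.44 with each other and with those 3. Upk3b held 7 to 44 counts and Lrrn4 1 to 10 in these libraries, and Msln ranged over 18.8 to 29.5 CPM. With so few counts or so small a range, a low r cannot show that genes vary apart. Each r is a description of 9 libraries that share 1 time and 2 treatments, with cadmium libraries 1 and 3 at the ends of the range.

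The genes most like each member at 6 weeks were sought among 14433 genes with a mean of at least 1 CPM. Prg4 (r = 0.995), Serpinb2 (0.986) and the coagulation factor F10 (0.983) came first for Alox15. Serpinb2 (0.987), the integrin alpha M gene Itgam (0.982) and Prg4 (0.979) came first for Slpi. Nfam1 (0.972) and the scavenger receptors Msr1 (0.951) and Marco (0.951) came first for Saa3. Serpinb2 ranged over 0.324 to 6.85 CPM at 6 weeks, stood at 0.905 CPM in cadmium library 2 of 18 weeks and at most at 0.0231 CPM in the other 10. It had 0 counts in all 10 culture libraries. Bbx (0.917), Grb7 (0.9) and Kcnh8 (0.896) led for Msln. Gja1 (0.96), Rab13 (0.936) and Chmp1b (0.935) led for Upk3b, and Wdr36 (0.942), Vasp (0.93) and Il17rd (0.928) for Lrrn4. Those 9 genes varied little, from the 158 to 174 CPM of Bbx to the 8.91 to 14.0 CPM of Gja1. The highest of 14433 r values over 9 libraries is high by selection alone, and none of these r was tested. Lrrn4 held only 1 to 10 counts in those libraries.

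**Figure D3:**
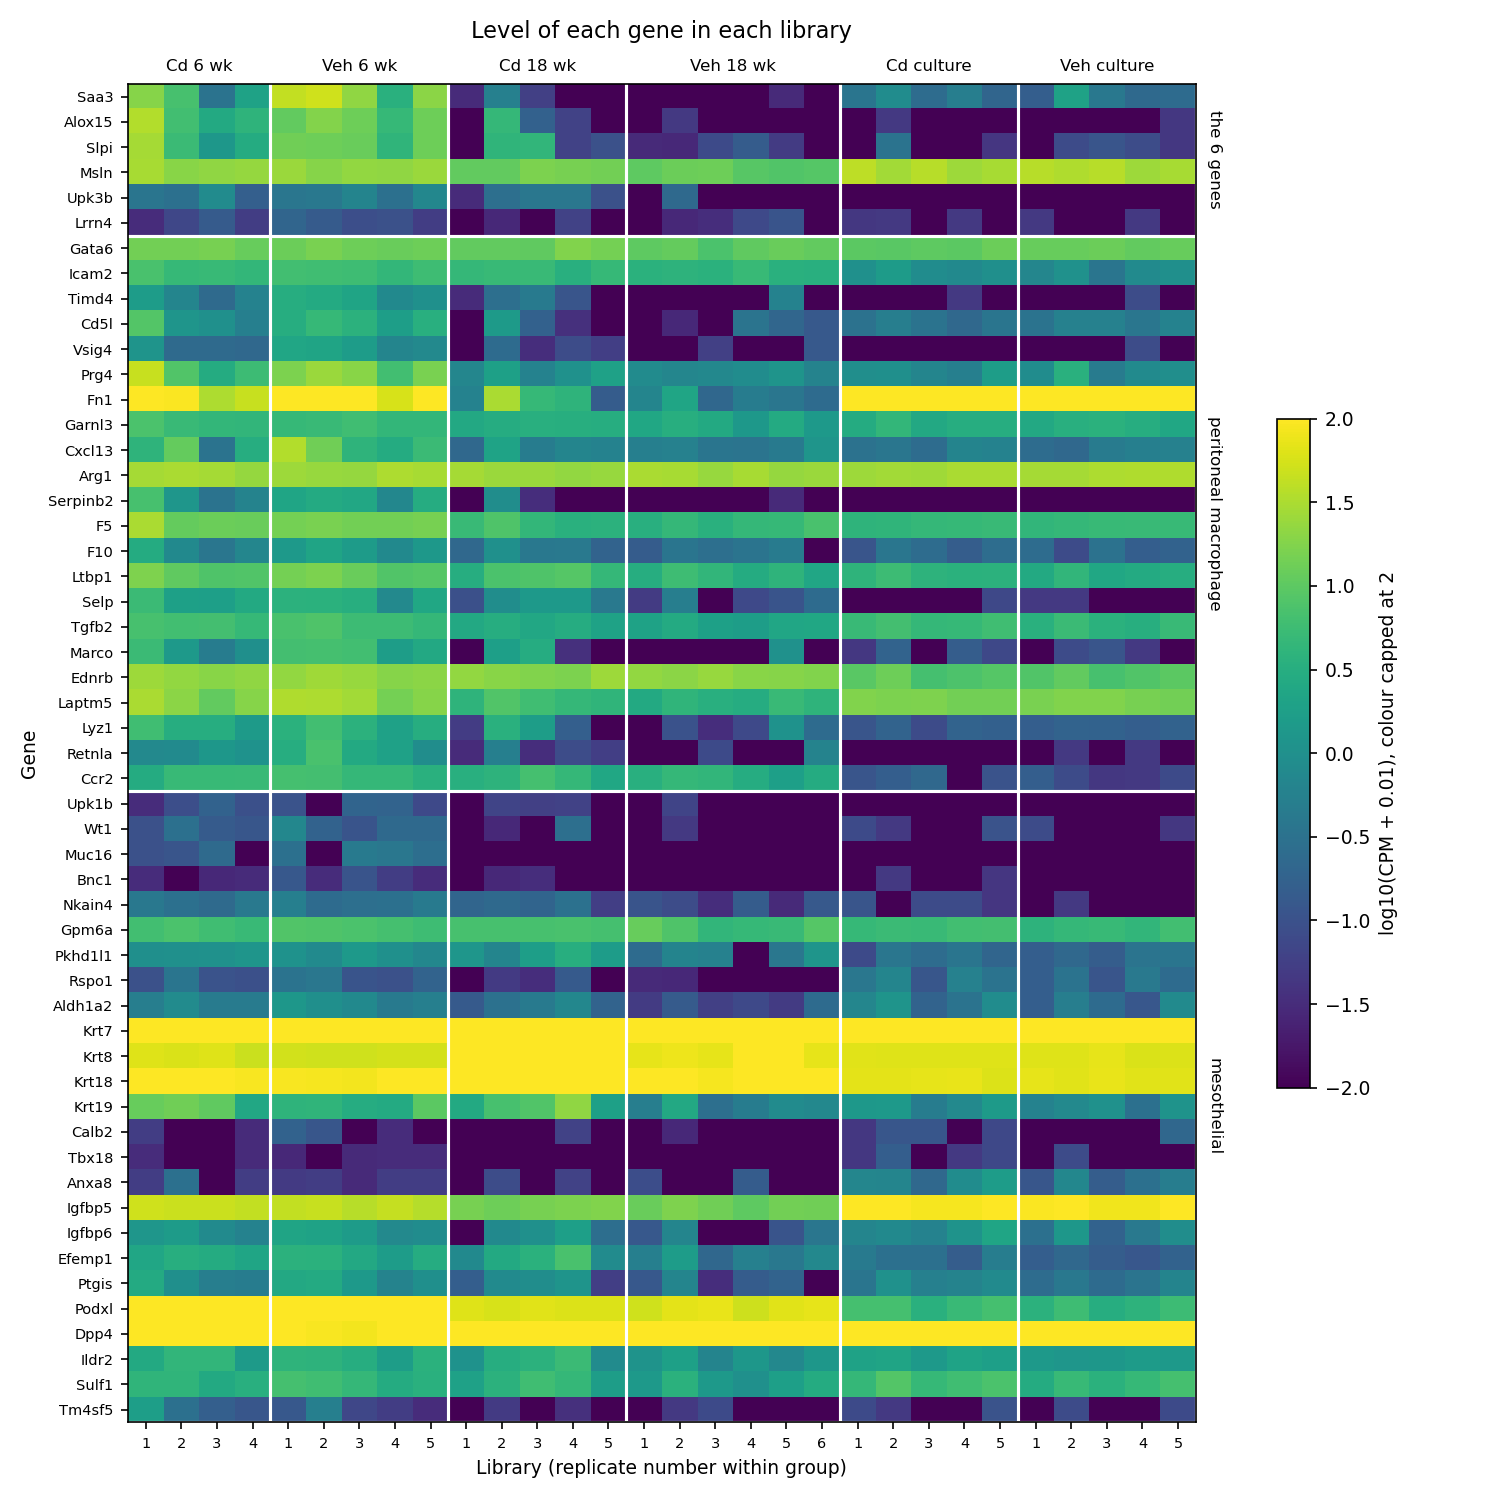
Level of the 6 genes, 22 peritoneal macrophage genes and 25 mesothelial markers (rows) in the 30 libraries (columns, grouped, cadmium left of vehicle), coloured by log10(CPM + 0.01) and capped at 2. Serpinb2 follows Alox15 down the 6-week columns and into cadmium library 2 of 18 weeks, while Upk1b, Wt1, Muc16 and Bnc1 are dark in most 18-week and culture columns.

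The list of peritoneal macrophage genes held 22 genes. In vehicle islets 18 of them lay lower at 18 weeks than at 6 weeks in every library, against 22.7% of all genes, and 13 of 16 pan-macrophage markers did so. The list had a summed level of 80.2 to 95.1 CPM in vehicle libraries at 18 weeks and of 196 to 425 CPM in vehicle libraries at 6 weeks. Not all of it tracked Alox15. Arg1 averaged 27.2 ± 3.37 CPM (SD, n = 6) in vehicle islets at 18 weeks and 27.1 ± 3.89 CPM (SD, n = 5) at 6 weeks. The endothelin receptor Ednrb averaged 20.3 ± 2.5 CPM (SD, n = 6) and 22.4 ± 3.46 CPM (SD, n = 5). Fn1 averaged 0.69 ± 0.762 CPM (SD, n = 6) at 18 weeks and 140.0 ± 53.0 CPM (SD, n = 5) at 6 weeks, and 246 ± 91.5 CPM (SD, n = 5) in vehicle culture. Pan-macrophage transcripts were detected at 18 weeks, with C1qa at 43.7 ± 5.89 CPM (SD, n = 6) in vehicle islets, against 64.8 ± 9.62 CPM (SD, n = 5) at 6 weeks. The lysozyme gene Lyz2 averaged 15.5 ± 3.59 CPM (SD, n = 6) at 18 weeks and 113 ± 46.5 CPM (SD, n = 5) at 6 weeks.

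Cadmium at 6 weeks changed none of the 6 genes past the test. Saa3 averaged 6.97 ± 8.26 CPM (SD, n = 4) in cadmium and 27.9 ± 19.2 CPM (SD, n = 5) in vehicle islets. Its log2 fold change by edgeR's quasi-likelihood test was -2.01 ± 0.88 (SE; 95% interval -3.96 to -0.0636), with an unadjusted p of 0.0441 and a Benjamini-Hochberg adjusted p of 0.919. It was -3.19 without cadmium library 1 and -1.6 without cadmium library 3. Alox15 averaged 11.9 ± 15.3 CPM in cadmium and 12.0 ± 4.82 CPM in vehicle islets, and Slpi 9.6 ± 13.0 CPM and 11.2 ± 3.95 CPM (SD, n = 4 and 5). Their log2 fold changes were -0.01 ± 0.67 and -0.22 ± 0.72, and without cadmium library 1 they were -1.5 and -1.83. Msln (0.07 ± 0.12) and Upk3b (-0.20 ± 0.45) had edgeR adjusted p-values of 0.961 and 0.97, and Lrrn4 was too low to pass the filter. Of the 5 genes tested 0 were called, against 0.0% of 18080 genes (923 had an unadjusted p under 0.05), and DESeq2 called 11 of 22618 genes (0.0486%) and none of these, giving Slpi no p.

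**Figure D4:**
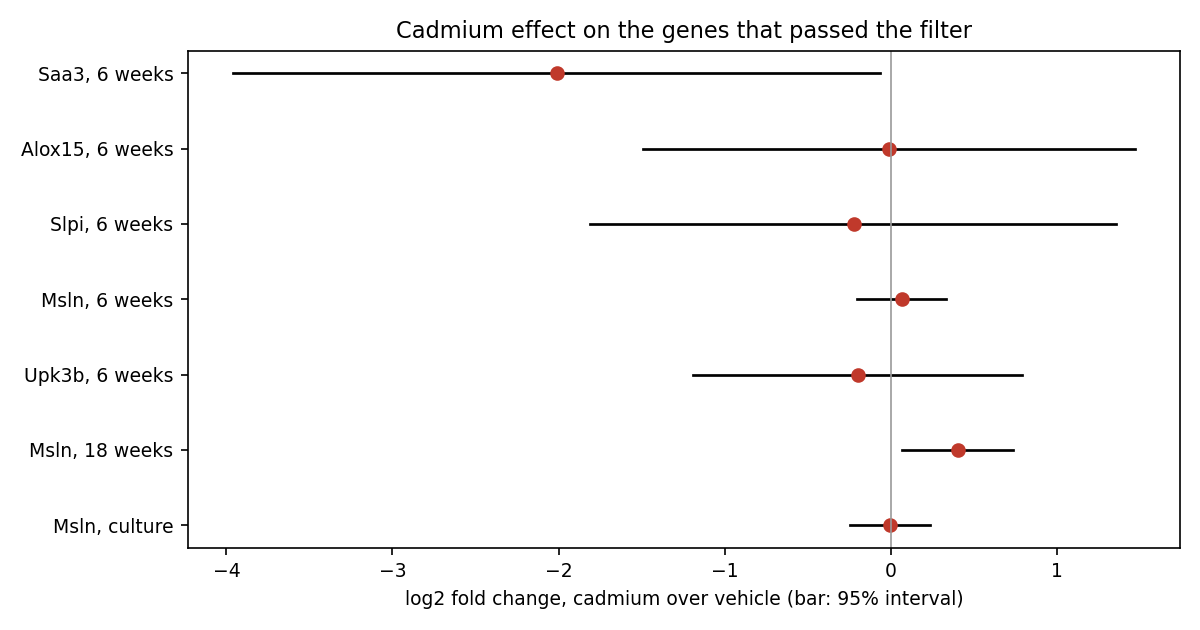
Log2 fold change of cadmium over vehicle (point) with its 95% interval (bar) from edgeR, for each gene and setting that passed the filter on low counts. The intervals of Saa3 at 6 weeks (-3.96 to -0.0636) and of Msln at 18 weeks (0.0676 to 0.74) lie to 1 side of 0 before adjustment, and those of Alox15 and Slpi at 6 weeks span over 2 units.

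No related gene passed the same test at 6 weeks. Of 15 tested acute phase proteins 0 were called, with a median log2 fold change of -0.10, and the 2 with the smallest p rested on 1 library. Lcn2, the siderophore-binding lipocalin 2, held 9, 1113, 15 and 89 counts in cadmium libraries, against 35, 31, 45, 11 and 33 in vehicle libraries. Ltf (lactoferrin) held 7, 1355, 22 and 50 counts in cadmium and 20, 8, 20, 6 and 16 in vehicle libraries. Saa3 did not stand out in cadmium library 2, where it held 334 counts. The other serum amyloid genes were nearly silent in all 30 libraries, with at most 5 counts of Saa1, 4 of Saa2 and 0 of Saa4.

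All 16 pan-macrophage markers had fold changes below 0 with cadmium at 6 weeks, with a median of -0.53 against -0.0019 over all genes tested. None was called, and C1qa (-0.39 ± 0.10) and Cd163 (-2.42 ± 0.67) had edgeR adjusted p-values of 0.919. Their summed level was 188 to 408 CPM in cadmium and 240 to 560 CPM in vehicle libraries, and both groups overlapped. The 9 tested B and T cell genes were also all below 0, with a median of -0.50 and 0 called. Of the 22 peritoneal macrophage genes 14 were below 0 and 0 were called. Retnla, the secreted protein resistin-like alpha, had -1.65 ± 0.49 and Vsig4, a complement receptor of resident macrophages, -1.73 ± 0.59, both with an edgeR adjusted p of 0.919. The 20 acinar markers were all above 0, with a median of 0.63, 0 called and a summed level of 35913 to 81990 CPM in cadmium and 26545 to 49418 CPM in vehicle libraries. The part of these cell types in the Saa3 value was not tested.

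Among lipoxygenase pathway genes at 6 weeks 15 of 17 were below 0 and 0 were called, with a median of -0.10. Alox5ap, which presents arachidonic acid to 5-lipoxygenase, had -0.28 ± 0.18 and Alox5 itself -0.73 ± 0.49, both with an edgeR adjusted p of 0.919. Of 20 genes for acute phase inducers and receptors 10 were above 0 and 0 were called. The smallest p-values were those of Il1rn, the interleukin 1 receptor antagonist (1.44 ± 0.62), and Tlr4, the endotoxin receptor (-0.40 ± 0.19), with an edgeR adjusted p of 0.919 each. Among antiproteases, the leukocyte elastase inhibitor Serpinb1a (0.47 ± 0.20) and Wfdc1 led, and 0 of 8 were called.

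At 18 weeks Msln alone was high enough for the test. It averaged 13.5 ± 2.51 CPM (SD, n = 5) in cadmium and 10.3 ± 2.07 CPM (SD, n = 6) in vehicle islets, with libraries at 10.9, 10.8, 16.3, 15.1 and 14.2 CPM in cadmium and a lowest, median and highest of 8.21, 9.59 and 13.0 CPM in vehicle. Cadmium libraries 3, 4 and 5 lay above every vehicle library, and libraries 1 and 2 within the vehicle range. The log2 fold change was 0.40 ± 0.16 (SE; 95% interval 0.0676 to 0.74), with an edgeR adjusted p of 0.212 (0.022 unadjusted). Without cadmium library 2 it was 0.48 (edgeR adjusted p = 0.179), without cadmium library 3 0.32 (adjusted p = 0.409) and without both 0.40 (adjusted p = 0.369). The test called 75 of 20911 genes (0.359%; 0.344% higher and 0.0143% lower) and 0 of the 6, while DESeq2 called 3.59% of 20941 genes. In the same libraries, 20 acinar markers summed to 34049, 13916, 91258, 219406 and 56223 CPM in cadmium and 5888, 15153, 6461, 2276, 5555 and 8646 CPM in vehicle, and all 12 ductal markers had fold changes above 0. Their part in the Msln value was not tested.

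The cadmium effect on Slpi and Alox15 at 18 weeks depends on how low counts are handled and on 1 or 2 libraries. Summed over libraries, Slpi held 414 counts in cadmium and 9 in vehicle islets, and 4 of the 414 lay outside cadmium libraries 2 and 3. Alox15 held 257 and 2 counts, and 9 of the 257 lay outside cadmium library 2. Without the filter, edgeR gave Slpi 5.31 ± 1.2 (adjusted p = 0.0633) and Alox15 6.37 ± 1.57 (adjusted p = 0.0937). That fit called 0.383% of 36571 genes. In 1 edgeR fit of all 30 libraries both passed, with adjusted p-values of 0.00757 and 0.0118. The same fit called 2496 of 22721 genes at 18 weeks (11%), against 75 in the fit of the 2 groups. DESeq2 called Slpi (5.19, adjusted p = 0.0223). Saa3 had 4.16 ± 1.27 without the filter (edgeR adjusted p = 0.165). The choice of Saa3 and Alox15 rested in part on their 18-week counts, so their p-values here are descriptions.

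Fits without cadmium libraries 2, 3 or both were added after the data had been seen. Without cadmium library 2, the unfiltered edgeR fit gave Slpi 4.71 ± 1.19 (adjusted p = 0.0849), Alox15 2.36 ± 1.1 (adjusted p = 0.383) and Saa3 1.55 ± 1.11 (adjusted p = 0.523). Without cadmium library 3 it gave Slpi 4.62 ± 1.17 (adjusted p = 0.15), Alox15 6.64 ± 1.51 (adjusted p = 0.0911) and Saa3 4.36 ± 1.28 (adjusted p = 0.254). Without both, Slpi had -0.06 ± 1.0, Alox15 0.88 ± 1.32 and Saa3 0.67 ± 1.3, with edgeR adjusted p-values of 0.991, 0.8 and 0.843. In the edgeR fit of all remaining libraries, Slpi was called without library 2 (adjusted p = 0.0223) or library 3 (0.0324) and not without both (0.987). Alox15 was called there without library 3 (edgeR adjusted p = 0.0142) and not without library 2 (0.463) or both (0.893), and Msln was called without library 2 (0.46 ± 0.15, adjusted p = 0.0485). DESeq2 gave Slpi no adjusted p in any of these subsets. Fitted values of genes with libraries at 0 depend on the prior count and are no bound.

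The cadmium effect at 18 weeks minus that at 6 weeks was positive for all 5 genes tested, and 0 were called, against 1.68% of 22721 genes (0.898% above 0 and 0.783% below). This contrast uses the 6-week and 18-week counts by which Saa3 and Alox15 were chosen. Its p-values and calls for these genes are therefore descriptions and no independent test. Slpi had a difference of 5.58 ± 1.52 (edgeR adjusted p = 0.0531) and Alox15 of 6.46 ± 1.89 (adjusted p = 0.0629). Saa3 had 6.32 ± 2.59 (adjusted p = 0.158), Upk3b 2.35 ± 1.06 (adjusted p = 0.205) and Msln 0.31 ± 0.21 (adjusted p = 0.411). Without cadmium library 2 of 18 weeks, Alox15 had 2.38 ± 2.04 (edgeR adjusted p = 0.524) and Saa3 3.59 ± 4.81 (adjusted p = 0.706), while Slpi had 5.0 ± 1.56 (adjusted p = 0.0728). Without cadmium library 3 of 18 weeks, Alox15 had 6.74 ± 1.85 (edgeR adjusted p = 0.0821) and Slpi 4.97 ± 1.54 (adjusted p = 0.111). Without both libraries, Alox15 had 0.85 ± 2.83, Slpi 0.12 ± 2.6 and Saa3 2.7 ± 7.41, with edgeR adjusted p-values of 0.908, 0.996 and 0.883. Upk3b then had 1.87 ± 1.21 (edgeR adjusted p = 0.42) and Msln 0.31 ± 0.22 (adjusted p = 0.467). DESeq2, which called 7.32% of 18578 genes, called Saa3 (5.86, adjusted p = 0.0212) and Slpi (5.42, adjusted p = 0.0374). Without cadmium library 2 DESeq2 called neither (adjusted p = 0.25 and 0.0778), without library 3 it called Saa3 and not Slpi (0.0289 and 0.0997), and without both neither (0.526 and 0.973). Slpi was called by edgeR without vehicle library 4 of 6 weeks (adjusted p = 0.0345), cadmium library 1 of 6 weeks (0.049), vehicle library 4 of 18 weeks (0.0352) or cadmium libraries 1 or 5 of 18 weeks (0.0245 and 0.0186). Alox15 was called by edgeR without vehicle library 4 of 6 weeks (adjusted p = 0.0436), cadmium library 1 of 6 weeks (0.049), or cadmium libraries 1 or 5 of 18 weeks (0.0317 and 0.0267). A fit of the in vivo groups alone called 0 genes in all.

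Macrophage, acute phase, lipoxygenase and antiprotease genes that were called for this difference all had values above 0. These calls came from the fit of all 6 groups, and the fit of the in vivo groups alone called 0 genes. Of 16 pan-macrophage markers 5 were called, Mrc1 (mannose receptor), Cd163 (haemoglobin scavenger receptor), C1qb, C1qc and Tyrobp, against 1.68% of all genes tested. The same contrast called 11 of 20 acinar markers. It also called 1 of 8 mast cell, eosinophil and neutrophil genes, 1 of 14 stellate and fibroblast markers and 1 of 12 ductal markers. Cd163 had -2.42 ± 0.67 at 6 weeks and 1.2 ± 0.53 at 18 weeks, and a difference of 3.60 ± 0.80 (edgeR adjusted p = 0.0329). Of 18 acute phase proteins 1 was called, Itih4, an inter-alpha-trypsin inhibitor chain, with 3.17 ± 0.72 (adjusted p = 0.034). Of 17 lipoxygenase pathway genes 1 was called, Aloxe3, an epidermal lipoxygenase, with 0.75 ± 0.19 (edgeR adjusted p = 0.0443). Of 10 antiprotease genes 1 was called, Serpinb1a, with 2.15 ± 0.43 (edgeR adjusted p = 0.0306), which was also called at 18 weeks alone (2.63 ± 0.37, adjusted p = 0.0376). Serpinb1a averaged 10.5 ± 6.88 CPM (SD, n = 5) in cadmium and 1.72 ± 0.692 CPM (SD, n = 6) in vehicle islets at 18 weeks. In that comparison 18 of 20 acinar markers were called too, with a median of 3.46, and their part in these values was not tested. Without the 3 shallow libraries, edgeR called 0 genes at 18 weeks. Of the 22 peritoneal macrophage genes 0 were called, with 19 above 0, and of 19 mesothelial markers 0.

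At 18 weeks itself, 0 of 12 acute phase proteins were called and all 12 had fold changes above 0, with a median of 1.48 against 0.0003 over all genes tested. Itih4 (2.40 ± 0.55, edgeR adjusted p = 0.0831) and C-reactive protein Crp (2.13 ± 0.52, adjusted p = 0.0993) had the smallest p. Of 15 peritoneal macrophage genes 14 were above 0 and 0 were called, led by Fn1 (3.43 ± 0.99, edgeR adjusted p = 0.136). Fn1 held 28, 1695, 205, 155 and 3 counts in cadmium and 33, 120, 9, 7, 18 and 2 in vehicle libraries, so that 1 library held most of it. Of 13 mesothelial markers 11 were above 0 and 0 were called, led by the keratins Krt19 (3.13 ± 0.64, adjusted p = 0.0566) and Krt7 (0.27 ± 0.07, adjusted p = 0.114), which duct cells also express.

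In cultured islets Saa3 was present without Alox15. Saa3 held 10, 24, 7, 14 and 6 counts in cadmium cultures, against 4, 57, 11, 6 and 7 in vehicle cultures, and Alox15 at most 1 count in any of the 10. Slpi held 0, 9, 0, 0 and 1 counts in cadmium and 0, 2, 3, 2 and 1 in vehicle cultures. Saa3 thus had counts in all 10 culture libraries, while 5 of the 6 vehicle libraries at 18 weeks had 0. As a share of counts, Saa3 in vehicle culture was 143 times its level in vehicle islets at 18 weeks (95% interval 25 to 5725), with 85 counts against 1. It was 0.0258 of its level in vehicle islets at 6 weeks (0.0206 to 0.0319). Vehicle culture 2 held 57 of the 85 counts. Without it, a ratio added after the data had been seen, Saa3 in vehicle culture was 58.9 times its level in vehicle islets at 18 weeks (9.73 to 2407) and 0.0106 of that at 6 weeks (0.00704 to 0.0153). These intervals too cover counting error only.

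Lcn2 was counted in the same culture libraries. It held 128, 425, 41, 132 and 148 counts in cadmium cultures, against 5, 554, 140, 44 and 104 in vehicle cultures. Cadmium library 2 and vehicle library 2 led their groups for both genes, while cadmium library 5, with 148 counts of Lcn2, had the fewest of Saa3 in its group. Saa3 over Lcn2 was 0.0405 to 0.171 in cadmium cultures and 0.0673 to 0.136 in the 4 vehicle cultures with at least 10 counts of Lcn2. At 6 weeks it was 0.3, 1.1 and 1.04 in cadmium libraries 2, 3 and 4, and 14.4 to 76 in vehicle libraries. Cadmium library 1 of 6 weeks had too few counts of Lcn2 for a ratio, 9 beside 854 of Saa3. Pan-macrophage markers summed to 480 to 600 CPM in cadmium and 512 to 590 CPM in vehicle cultures, with Lyz2 at 263 ± 33.4 and 275 ± 27.7 CPM (SD, n = 5 each). Vsig4 and Timd4, resident macrophage markers among the 22 peritoneal macrophage genes, held at most 2 counts in any culture. Other genes of that list held more. Cd5l held 6 to 14 counts in cadmium and 9 to 17 in vehicle cultures, and Laptm5 averaged 15.7 ± 1.48 and 15.9 ± 1.5 CPM. Of the list, 17 genes, Cd5l among them, lay lower in vehicle culture than in vehicle islets at 6 weeks.

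**Figure D5:**
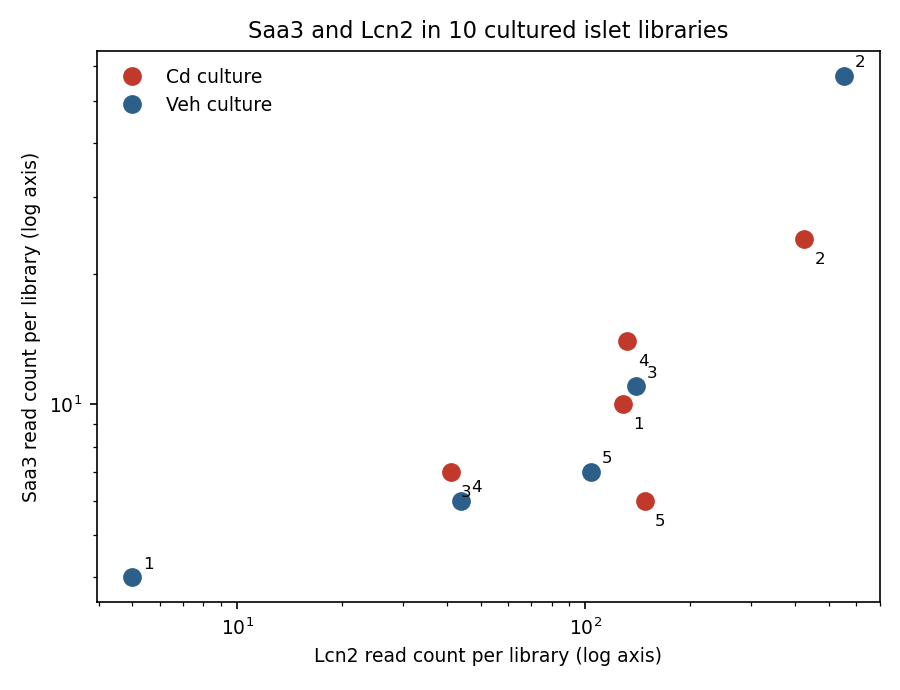
Saa3 against Lcn2 read counts in the 10 cultured islet libraries (both axes logarithmic), cadmium red and vehicle blue, each point a library with its replicate number. Vehicle library 2 (57 and 554 counts) and cadmium library 2 (24 and 425 counts) lie at the upper right, and vehicle library 1 (4 and 5 counts) at the lower left.

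Cadmium did not change these genes in culture past the test. Saa3 was too low for the filter, and had -0.50 ± 0.46 on the log2 scale without it (edgeR adjusted p = 0.78). Msln was the 1 gene of the 6 tested, at 32.3 ± 6.14 CPM in cadmium and 32.5 ± 4.65 CPM in vehicle cultures (SD, n = 5 each), where the cadmium effect was -0.0035 ± 0.11 (log2; -0.244 to 0.237 at 95%; edgeR adjusted p = 0.999). The test called 1 of 16743 genes (0.00597%) and DESeq2 1 of 32703 (0.00306%), none of these 6. Of 10 acute phase proteins 9 were above 0 and 0 were called, led by ceruloplasmin, Cp (0.71 ± 0.30), and Serpina3n (0.62 ± 0.31), with an edgeR adjusted p of 0.888 each. Of 14 mesothelial markers 14 were above 0, with a median of 0.41, and 0 were called. The 14 stellate and fibroblast markers had a median of 0.58 and 0 called. These fits did not use the replicate numbers. Libraries of the same number correlated at 0.08 to 0.29 in culture, and a fit with replicate numbers as a block called more genes there. No call of a member changed in it.

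Msln stood at 8.21 CPM or more in all 30 libraries, unlike Upk3b and Lrrn4. Per kilobase of exon, the levels in vehicle islets at 6 weeks were 10.7 CPM for Saa3, 9.48 for Slpi, 7.36 for Msln, 4.87 for Alox15, 0.134 for Upk3b and 0.0288 for Lrrn4. The exon lengths were those of the annotation, 2606 bases for Saa3. The length of the transcripts present was not tested, so the order of these values depends on the annotation. In CPM, Msln averaged 22.6 ± 2.57 (SD, n = 5) in vehicle islets at 6 weeks, 10.3 ± 2.07 (SD, n = 6) at 18 weeks and 32.5 ± 4.65 (SD, n = 5) in culture. These 3 groups did not overlap. In vehicle islets 22.7% of genes were lower at 18 weeks without overlap, and 18.8% of 23433 were higher in culture than at 6 weeks. By totals, Msln at 18 weeks stood at 0.537 of its 6-week level in vehicle islets (0.511 to 0.563), and in culture at 1.73 of it (1.66 to 1.8). Totals carry no TMM scaling, so these ratios need not match those of the CPM means. Their intervals cover counting error only, and not the spread among libraries. In CPM, cadmium groups kept the order of the vehicle groups. They averaged 23.6 ± 4.38 (n = 4) at 6 weeks, 13.5 ± 2.51 (n = 5) at 18 weeks and 32.3 ± 6.14 (n = 5, SD) in culture. Cadmium culture and cadmium 6 weeks overlapped.

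Upk3b behaved otherwise. It held 16, 14, 44 and 7 counts in cadmium and 19, 18, 31, 13 and 32 in vehicle libraries at 6 weeks. At 18 weeks it held 1, 15, 16, 15 and 2 counts in cadmium and 0, 12, 0, 0, 0 and 0 in vehicle libraries, so that vehicle library 2 stood among cadmium libraries 2, 3 and 4. Without the filter its cadmium effect at 18 weeks was 2.17 ± 0.90 (edgeR adjusted p = 0.298), and 1.73 ± 1.05 without cadmium libraries 2 and 3 (adjusted p = 0.586). Without vehicle library 2, the difference between its effects at 18 and 6 weeks was 6.41 ± 1.47 (adjusted p = 0.0378), in place of 2.35. In all 10 culture libraries it had 0 counts, which allows up to 0.0965 to 0.11 CPM per library. As a share of counts it was at least 18.4-fold lower in vehicle culture than in vehicle islets at 6 weeks, taking 3 counts over the group as the limit.

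Lrrn4 was at the edge of detection throughout. It held 1, 3, 7 and 2 counts in cadmium and 10, 6, 4, 4 and 2 in vehicle libraries at 6 weeks. It held 0, 1, 0, 2 and 0 counts in cadmium and 0, 1, 1, 1, 5 and 0 in vehicle libraries at 18 weeks, and at most 1 count in any culture. Counts this low overlapped between times, and no cadmium effect was detectable at this depth. Without the filter its 6-week effect was -0.68 ± 0.58 (edgeR adjusted p = 0.779).

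A further 4 markers of the mesothelium, Upk1b, Wt1 (the Wilms tumour factor), Muc16 and Bnc1, were low where Upk3b was low. Together they held 10, 23, 29 and 10 counts in cadmium and 62, 9, 40, 37 and 26 in vehicle libraries at 6 weeks. At 18 weeks they held 0, 5, 3, 13 and 0 counts in cadmium and 0, 5, 0, 0, 0 and 0 in vehicle libraries, where vehicle library 2 was again the one with counts. In culture they held at most 4 counts a library. These 4 were singled out after their values were seen. Of the whole list of 25 markers, 24 had counts enough to compare vehicle islets at 18 weeks with those at 6 weeks, and 11 were lower and 2 higher without overlap, against 22.7% and 23.2% of all genes. In vehicle culture 9 of 24 were lower than at 6 weeks, against 26.4%, and 4 were higher, against 18.8%. Those 4 were the keratin Krt8, Anxa8, Igfbp5 and the peptidase Dpp4. Its summed level, which is mostly Krt7, Dpp4 and Krt18, was 505 to 611 CPM in vehicle libraries at 18 weeks, 597 to 635 at 6 weeks and 507 to 553 in culture. Msln stood at 25.7 to 39.8 CPM in culture, and the cells it came from were not tested.

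In culture against vehicle islets at 6 weeks, 5 of the 6 genes had every culture library lower, against 26.4% of 23433 genes, and Msln was higher. For Lrrn4 this takes 0 counts as 0 CPM, since 3 counts would be 0.107 CPM in vehicle culture 2, above its lowest 6-week vehicle value of 0.0441 CPM. Against vehicle islets at 18 weeks, Saa3 and Msln were higher without overlap, as were 19.8% of 25991 genes, and the other 4 genes overlapped or were at or near 0. Saa3 too depends on that reading. At 3 counts it would stand at 0.361 CPM in vehicle library 6 of 18 weeks, above the 0.144 CPM of vehicle culture 1. With cadmium, Alox15, Slpi and Upk3b had every culture library below every 6-week library, as had 26.7% of 23242 genes. The peritoneal macrophage list had 17 of 22 genes lower without overlap in vehicle culture than in vehicle islets at 6 weeks, against 26.4% of all genes. Of the 19 that could be compared, 3 were lower and 3 higher (Fn1, Tgfb2 and Laptm5) in vehicle culture than in vehicle islets at 18 weeks, against 22.2% and 19.8% of 25991 genes.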

How the data were processed

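RNA of 30 islet libraries was measured by sequencing. The authors deposited raw counts by Ensembl gene, and those counts were used. Per the submitters' processing notes, cutadapt 1.13, STAR, HTSeq 0.6.1p1, DESeq2 and build mm10 were used upstream. No source used here names the annotation release, the strand setting or the treatment of multi-mapping reads, so Slpi, which shares exonic bases with Mir7678, and the serum amyloid genes, which resemble each other, are counted with some uncertainty. Of 54232 gene IDs 54079 (99.72%) matched a GENCODE M21 symbol.

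Cadmium was compared with vehicle within each setting by the quasi-likelihood test of edgeR 4.0.16 (R 4.3.3) on the 2 groups, after filterByExpr (minimum count 10, minimum total 15) and TMM scaling. Benjamini-Hochberg adjusted p-values under 0.05 over all genes tested were called. The difference between effects was a contrast in 1 fit of all 6 groups. Log2 fold changes are given ± SE and CPM ± SD. The code was tested on simulated data. Alternatives were DESeq2 1.42.0, its size factors, no filter, all libraries in 1 fit, a replicate block, and leaving out libraries. Fits without cadmium libraries 2, 3 or both of 18 weeks, and Saa3 totals without vehicle culture 2, were added after seeing the data. Groups were said not to overlap where every library of 1 lay beyond every library of the other, over genes with at least 15 counts in both together. Counts of 0 were taken as 0 CPM in that comparison. Elsewhere a count of 0 was read as up to 3 counts, and intervals are exact at 95%. Over 61 pairs of libraries within groups the lowest chi-square per degree of freedom was 2.77, and each library was kept as its own sample.

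The members and the 15 gene lists beside them were chosen with earlier results of these data known. All 6 members are named. Of each list, the genes called (at most 4 a direction, by smallest p), otherwise the 2 of smallest p, and the 3 most abundant were eligible to be named, with the 3 genes most like each member over the 9 libraries of 6 weeks (Pearson's r, log2 CPM, prior count 2). Others named were chosen after their values were seen.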

Additional observations from a re-analysis of the deposited data

Results flagged for a closer look

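In 34 sets of 4 to 6 libraries, 12 had a library far from the others of its group by Dixon's test. For normally distributed values, chance alone flags about 1 of 20. In 5 of the 12 (Saa3, Alox15 and Upk3b in vehicle islets at 18 weeks and Alox15 in both cultures) every other library of the group was at 0 counts. There any count stands apart, and that rate does not apply. The test was run on CPM, so skewed or low counts in the other sets can be flagged more often than that rate too. Saa3 stood apart in cadmium library 2 at 18 weeks (0.536 CPM), in vehicle library 5 at 18 weeks (0.0198 CPM, 1 count) and in vehicle culture 2 (2.03 CPM). Alox15 stood apart in cadmium library 1 at 6 weeks (34.8 CPM), in cadmium library 2 at 18 weeks (4.58 CPM) and in vehicle library 2 at 18 weeks (0.0368 CPM, 2 counts). In cadmium culture 2 (0.0359 CPM) and vehicle culture 5 (0.0349 CPM) it stood apart by 1 count. Slpi was high in cadmium library 1 at 6 weeks (28.9 CPM) and in cadmium culture 2 (0.323 CPM, 9 counts), and low in vehicle library 4 at 6 weeks (4.2 CPM). Upk3b stood apart in vehicle library 2 at 18 weeks (0.221 CPM, 12 counts).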

How the results depend on the processing

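The members had 12 values from the test, recomputed under 252 alternatives. Of these 223 kept direction and side of the threshold, 14 passed it (all for the effect at 18 weeks minus 6 weeks, except that of Msln at 18 weeks in the fit of all libraries but cadmium library 2) and 15 changed sign, all with a library left out. Fits without cadmium libraries 2, 3 or both of 18 weeks were chosen after seeing the data. Without both, Slpi at 18 weeks changed sign, to -0.0632 without the filter and -0.101 in the fit of all libraries. With each library left out in turn, the 6-week log2 fold change ran from -1.5 to 0.323 for Alox15, from -1.83 to 0.144 for Slpi, from -0.0615 to 0.153 for Msln and from -0.839 to 0.0651 for Upk3b, and that of Msln in culture from -0.0877 to 0.0659. The counts of genes called moved more. At 6 weeks DESeq2 called 11, the fit of all libraries 1, and fits with a library left out 0 to 1. At 18 weeks DESeq2 called 751, the fit without the filter 140, the fit of all libraries 2496, that without the shallow libraries 0, and fits with a library left out 0 to 318. In culture the fit without the filter called 7, that of all libraries 0, and fits with a library left out 1 to 2. For 18 minus 6 weeks DESeq2 called 1360, the fit without the filter 192, that of the in vivo groups alone 0, and fits with a library left out 0 to 1694. The cause was not tested. With a replicate block 1 gene was called at 18 weeks, 223 in culture and 0 for the difference between times, and no call of a member changed. Same-numbered libraries correlated at -0.08 to 0.14 at 6 weeks, -0.09 to 0.27 at 18 weeks and 0.08 to 0.29 in culture, and 1 of 8, 5 of 10 and 7 of 10 were closest to their own number, and in no setting did every pair exceed the 0.1 set for reading the numbers as pairs. Non-overlap counts of members (5, 6 and 2), with 0 counts taken as 0 CPM, held under each scaling and with each library left out. Depth limits Lrrn4 and, at 18 weeks, vehicle libraries 4 and 6 and cadmium library 5.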
